A study of Mus musculus with 12 samples.

Results

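The endosomal chloride and proton exchangers are the 6 genes Clcn3, Clcn4, Clcn5, Clcn6, Clcn7 and Slc9a9, out of 56941 genes in the deposited count tables. They were found by matching the Ensembl identifiers of the tables to mouse gene symbols. Clcn5 and Slc9a9 were chosen on measured values, because the study picked them as predicted miR-210 targets with a higher level in miR-210 KO M2 than in WT M2 macrophages. Their difference in that comparison is therefore given as a description without a test. The other members came in as the remaining organellar members of the Clcn family.

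The 5 Clcn members encode CLC proteins that sit in endosomes and lysosomes and carry chloride inward in exchange for protons. They act beside the vacuolar proton ATPase (V-ATPase), which pumps protons into these compartments, and their anion transport balances the charge that the pump moves. Slc9a9 encodes NHE9, a sodium or potassium for proton exchanger of recycling endosomes that lets protons leak back out of the lumen. In macrophages the acidity of these compartments bears on receptor recycling, on the maturation of phagosomes and on the breakdown of engulfed material.

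RNA was measured in macrophages grown from bone marrow monocytes of C57BL/6J mice, which were wild-type (WT) or lacked miR-210 (miR-210 KO), a microRNA known for its induction in hypoxia. The deletion goes back to a cross of mice with a floxed miR-210 gene and Gata-1 Cre mice, and KO and WT animals came from matings of heterozygous mice. Monocytes were isolated with magnetic beads that remove other cells, and all cultures spent 7 days in a medium with 30% L929 fibroblast-conditioned medium, a source of M-CSF, and 20% fetal bovine serum. The M2 groups then received 20 ng/mL IL-4 for 72 hours, and the M0 groups were control macrophages without IL-4. Each of the 4 combinations of genotype and state (WT M0, WT M2, miR-210 KO M0, miR-210 KO M2) had 3 libraries. The number and age of the animals behind a library were not given in the sources used here, so p-values measure the spread between these libraries.

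The library totals lay between 7930525 and 10167695 counts. The deleted gene Mir210 (GRCm39, chromosome 7, 140801297 to 140801406) had from 1 to 5 counts in the WT libraries and 0 in each miR-210 KO library, where 0 counts still allow a share of 2.95e-05% to 3.71e-05% (3 counts of the total), counting error only. The batch label has a different value in each group, so that batch and group cannot be told apart. The 6 macrophage markers summed to 3325 to 4016 CPM (counts scaled to the size of the library) in every library. Adgre1, Cd68 and Csf1r had group means of 786 to 1259 CPM and Itgam of 279 to 425 CPM. Under IL-4, Fcgr1 fell to 0.128 of its M0 level in WT and 0.166 in miR-210 KO, and Mertk to 0.397 and 0.535 (edgeR). The summed level of 7 neutrophil markers was 0.710 to 4.95 CPM in a library, that of 6 lymphoid markers 0 to 0.445 CPM, that of 4 erythroid markers 0 to 4.21 CPM and that of 4 stromal markers 0.123 to 2.29 CPM. The 4 dendritic cell markers summed to 0.310 to 0.952 CPM in M0 and to 10.1 to 17.9 CPM in M2. Of these 4, Zbtb46 rose from 2 to 6 counts a library to 88 to 143, while Flt3 and Siglech had at most 2 counts and Xcr1 at most 6. The part of such cells in the results below was not tested. In RNA from whole cultures, fewer cells of a type and less RNA per cell cannot be told apart.

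The sequences of miR-210 are shown first, because Clcn5 and Slc9a9 entered the study as its predicted targets. The mature sequences come from RefSeq, with the seed (bases 2 to 8) in capitals.
miR-210-3p: cUGUGCGUgugacagcggcuga
miR-210-5p: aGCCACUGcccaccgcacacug
The letters that pair with the seed of miR-210-3p are ACGCACA, and a match of 6 bases is CGCACA. In the canonical transcript of each gene (GENCODE annotation of GRCm39), neither the 3′ untranslated region (UTR) of Clcn5 nor that of Slc9a9 nor those of the other 4 genes held a match of 6 or more bases. Over the canonical 3′ UTRs of 20858 coding genes, 9.26% held such a match. The study took its predictions from miRDB, TargetScan and DIANA-microT. The sites and transcripts behind those predictions were not looked up here, so the predictions themselves were not tested. Counting every coding transcript, a match of 6 bases stood in Clcn6 alone among the 6 genes, in 4 of its 10 coding transcripts. In these 4 the coding sequence ends earlier than in the canonical transcript, hence the name shorter form below. The 3′ UTR of such a form had 1319 bases, against 320 in the canonical transcript. In coding sequence, Clcn5 held a match of 6 bases followed by an A, and Clcn6 a match of 6 bases. The A stands opposite base 1 of miR-210-3p, a C, and does not pair with it. A match of 7 bases, or of 6 bases followed by an A, occurred in 6.12% of the canonical coding sequences of these genes. The windows on the strand of the RNA are given with the match in capitals, for Clcn5 together with the A that follows it.
Clcn5, coding sequence, chrX:7032143-7032166: gctctgtttatcCGCACAAacatt
Clcn6, coding sequence, chr4:148097202-148097225: cgtacgtctaccCGCACActcgca
Clcn6, 3′ UTR of a shorter form, chr4:148100023-148100046: aagctcagccacCGCACAccacca
The letters that pair with the seed of miR-210-5p, CAGTGGC, stood in the canonical 3′ UTRs of Clcn3, Clcn5 and Slc9a9 and in no 3′ UTR of Clcn4, Clcn6 or Clcn7. Of the canonical 3′ UTRs of the 20858 coding genes, 13.6% held them, a share that is not matched for length. The canonical 3′ UTR had 6242 bases in Clcn5, 3156 in Clcn3 and 1380 in Slc9a9. It had 2771 bases in Clcn4, 1575 in Clcn7 and 320 in Clcn6.
Clcn3, chr8:61363278-61363301: cagtgtacctCAGTGGCcagttac
Clcn5, chrX:7023334-7023357: cctggacacaCAGTGGCtcttgtc
Slc9a9, chr9:95112062-95112085: ccagagtggcCAGTGGCtgcattg
A match is a description of the letters and not a site of binding, and its absence says only that these letters are not in this window.

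The question of how IL-4 changes these genes was answered within each genotype. In WT, Clcn3, Clcn4 and Clcn5 rose and Clcn7 and Slc9a9 fell, and the same 5 genes were called in the same directions in miR-210 KO. Calls needed an adjusted p under 0.05 and a change of more than 1.2-fold in either direction (edgeR's quasi-likelihood test with Benjamini-Hochberg adjustment over all genes tested). The 3 members called higher stand beside 22.1% of 14266 genes in WT and 17.4% of 14331 genes in miR-210 KO, and the 2 called lower beside 20.9% and 16.4%. The median log2 fold change of the 6 members was 0.36 in WT and 0.24 in miR-210 KO, and that of all genes tested was -0.0012 and -0.0078. M2 and M0 libraries did not overlap in any of the 6 genes in WT, as in 57.0% of all genes tested, and in 5 of the 6 in miR-210 KO, as in 46.3%. The M2 libraries of both genotypes also stood in the comparison on which Clcn5 and Slc9a9 were chosen. Levels of single libraries below are CPM, scaled by TMM factors over the 12 libraries so that groups can be compared, and are listed in the order of the libraries numbered 1 to 3.

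**Figure D1:**
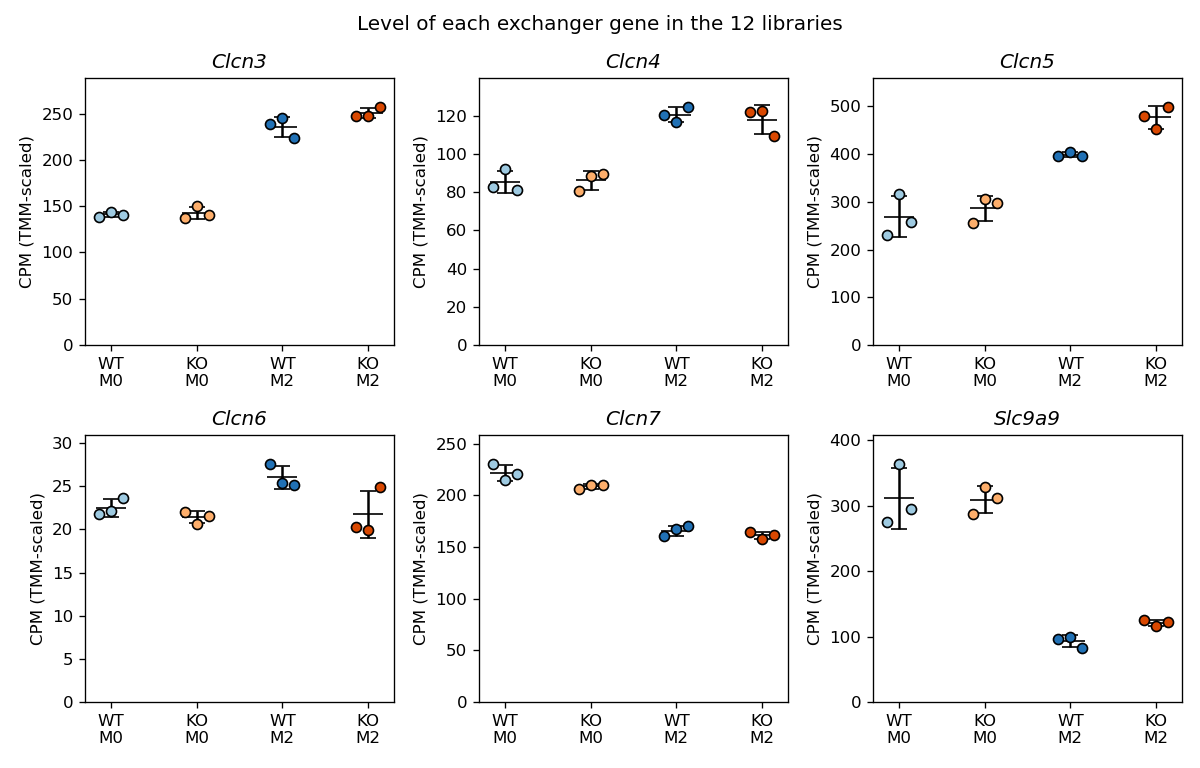
Level of the 6 genes in each library, in TMM-scaled CPM on linear axes that start at 0, for WT and miR-210 KO (KO) in M0 and M2. Points are libraries, horizontal bars are the mean of 3 and whiskers the SD. Clcn3, Clcn4 and Clcn5 stand higher in M2, Clcn7 and Slc9a9 lower, and Clcn6 lies between 20.0 and 27.6 CPM throughout.

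Clcn3 (GRCm39, chromosome 8, 61362958 to 61446785) encodes an exchanger of endosomes and synaptic vesicles. Its level was 139, 144 and 141 CPM in WT M0 and 238, 245 and 223 CPM in WT M2. It was 138, 150 and 141 CPM in miR-210 KO M0 and 248, 247 and 257 CPM in miR-210 KO M2. Every M2 library lay above every M0 library of either genotype. The rise was 1.67-fold in WT (log2 fold change 0.74, standard error 0.063, adjusted p = 4.4e-07, edgeR) and 1.76-fold in miR-210 KO (0.81, standard error 0.073, adjusted p = 2.1e-06). Nek1, on the opposite strand, shares 468 exonic bases with Clcn3 and had 172 to 240 counts a library against 1091 to 2362 for Clcn3. The counting kept the strands apart.

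Clcn4 (chromosome 7, 7284412 to 7303914) encodes an exchanger that forms dimers with the product of Clcn3. Its level was 82.9, 92.0 and 81.3 CPM in WT M0 and 120, 117 and 125 CPM in WT M2. In miR-210 KO it was 80.7, 88.6 and 89.6 CPM in M0 and 122, 123 and 110 CPM in M2. The states did not overlap in either genotype. Clcn4 rose 1.42-fold in WT (log2 fold change 0.50, standard error 0.070, adjusted p = 4.9e-05, edgeR) and 1.37-fold in miR-210 KO (0.45, standard error 0.082, adjusted p = 8.0e-04).

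Clcn5 (chromosome X, 7019726 to 7185661) encodes the exchanger of early endosomes whose loss in the kidney impairs protein uptake in Dent disease. Its level was 232, 316 and 258 CPM in WT M0 and 397, 404 and 395 CPM in WT M2. In miR-210 KO it was 256, 306 and 297 CPM in M0 and 480, 452 and 499 CPM in M2. The 3 WT M2 libraries lay within 8.89 CPM of each other, whereas the WT M0 libraries spread over 84.0 CPM. Clcn5 rose 1.49-fold in WT (log2 fold change 0.58, standard error 0.094, adjusted p = 2.0e-04, edgeR) and 1.66-fold in miR-210 KO (0.73, standard error 0.085, adjusted p = 1.9e-05). Since the gene lies on the X chromosome, genes that mark sex were read in all libraries. Xist had 0 to 4 counts and the Y-linked gene Ddx3y 763 to 1133 counts in each of the 12 libraries.

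Clcn6 (chromosome 4, 148088716 to 148123304) encodes an exchanger of late endosomes that is best known from neurons. It had the fewest counts of the 6 genes, 166 to 241 a library. Its level was 21.7, 22.1 and 23.6 CPM in WT M0 and 27.6, 25.4 and 25.1 CPM in WT M2, which did not overlap. The log2 fold change of 0.21 in WT did not pass (standard error 0.091, 95% interval 0.017 to 0.41, adjusted p = 0.069, edgeR). In miR-210 KO the level was 22.04, 20.7 and 21.6 CPM in M0 and 20.3, 20.0 and 24.9 CPM in M2. These overlapped, with a log2 change of 0.019 (95% interval -0.23 to 0.27, adjusted p = 0.92, edgeR).

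Clcn7 (chromosome 17, 25352356 to 25381080) encodes the lysosomal exchanger that osteoclasts need to resorb bone. Its level was 230, 215 and 220 CPM in WT M0 and 161, 167 and 170 CPM in WT M2. In miR-210 KO it was 206, 210 and 211 CPM in M0 and 164, 158 and 162 CPM in M2. All M2 libraries lay below all M0 libraries. Clcn7 fell to 0.750 of its M0 level in WT (log2 fold change -0.41, standard error 0.061, adjusted p = 7.9e-05, edgeR) and to 0.773 in miR-210 KO (-0.37, standard error 0.070, adjusted p = 0.0011).

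Slc9a9 (chromosome 9, 94551669 to 95112500) had the largest change of the 6 genes under IL-4 in both genotypes. Its level was 275, 364 and 295 CPM in WT M0 and 97.0, 99.6 and 83.2 CPM in WT M2. In miR-210 KO it was 287, 329 and 311 CPM in M0 and 126, 117 and 122 CPM in M2. The lowest M0 library held 275 CPM and the highest M2 library 126 CPM. Slc9a9 fell to 0.301 of its M0 level in WT (log2 fold change -1.73, standard error 0.10, adjusted p = 1.5e-08, edgeR) and to 0.393 in miR-210 KO (-1.35, standard error 0.080, adjusted p = 4.3e-08). When changes over 2-fold were required in place of 1.2-fold, Slc9a9 was the 1 member called in each genotype. The share of all genes called at this limit was not counted, so this describes the size of its change only.

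**Figure D2:**
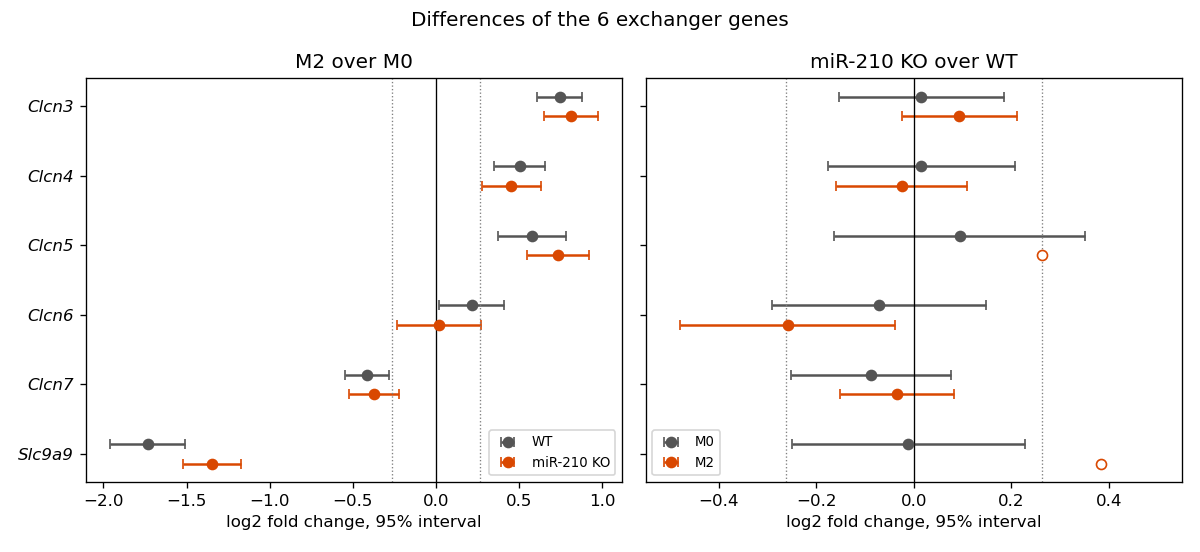
Log2 fold change of each gene from the fits of 6 libraries, M2 over M0 in each genotype on the left and miR-210 KO over WT in each state on the right, with 95% intervals. Dotted lines mark 1.2-fold in either direction, and the open points are Clcn5 (0.26) and Slc9a9 (0.38) in M2, which were chosen on that comparison and are drawn without an interval. On the left the largest change is that of Slc9a9, -1.73 in WT, and on the right each interval but that of Clcn6 in M2 includes 0.

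Levels were compared between genes only per transcript length, as CPM divided by the length of the canonical transcript in kilobases (RPKM). In WT M0 the order was Slc9a9 with 89.4 ± 13.4, Clcn7 with 54.4 ± 1.92, Clcn5 with 29.0 ± 4.64, Clcn3 with 23.6 ± 0.461, Clcn4 with 14.5 ± 0.983 and Clcn6 with 7.17 ± 0.322 RPKM (SD, n = 3). Neighbours in this order did not overlap. In WT M2, Clcn5 stood first with 43.1 ± 0.509 RPKM, above Clcn7 with 40.6 ± 1.18 and Clcn3 with 39.4 ± 1.86, and the latter pair overlapped. Slc9a9 had gone from the first to the fourth place, with 26.8 ± 2.53 RPKM, and Clcn4 with 20.5 ± 0.655 and Clcn6 with 8.29 ± 0.429 followed (SD, n = 3). The order in miR-210 KO M0 was that of WT M0. In miR-210 KO M2 it was Clcn5 with 51.6 ± 2.53, Clcn3 with 41.9 ± 0.935, Clcn7 with 39.5 ± 0.819, Slc9a9 with 34.9 ± 1.28, Clcn4 with 20.0 ± 1.26 and Clcn6 with 6.93 ± 0.877 RPKM (SD, n = 3), and neighbours did not overlap. With all annotated exons as the length, an alternative chosen after seeing the data, Clcn7 stood above Slc9a9 in both M0 groups and above Clcn3 in miR-210 KO M2, and the other places were kept.

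Within the summed RPKM of the 5 Clcn genes, the lysosomal Clcn7 made up 42.3% ± 2.75 in WT M0 and 26.7% ± 0.809 in WT M2 (SD, n = 3). The share of Clcn3 went from 18.4% ± 0.270 to 25.9% ± 1.03 and that of Clcn5 from 22.5% ± 2.84 to 28.4% ± 0.0706. In miR-210 KO the share of Clcn7 was 40.2% ± 1.13 in M0 and 24.7% ± 0.350 in M2, and that of Clcn5 24.3% ± 1.34 and 32.2% ± 0.859 (SD, n = 3). Clcn6 held 4.32% to 5.57% as group means. These shares depend on the transcript length that is used and were not tested.

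**Figure D3:**
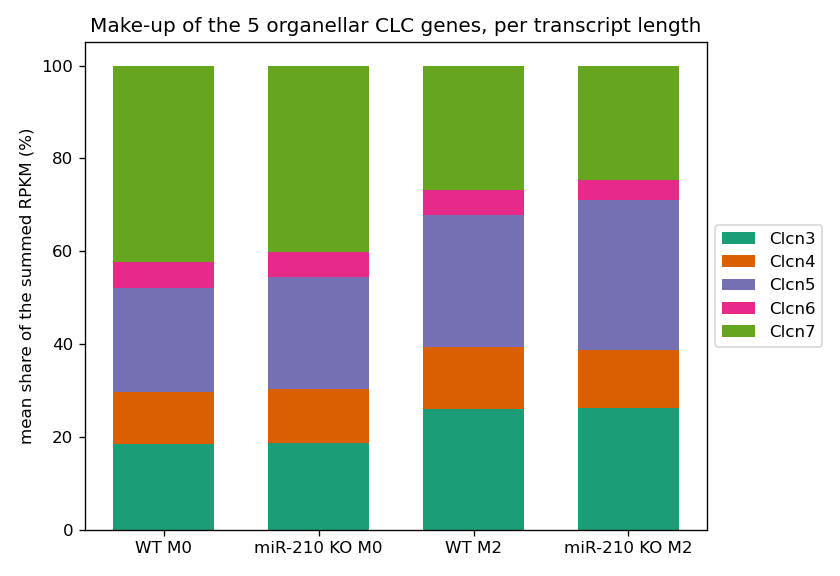
Share of each of the 5 organellar CLC genes in their summed RPKM, as the mean of 3 libraries in percent, stacked for each group. Clcn7 takes 42.3% in WT M0 and 26.7% in WT M2, and Clcn3 and Clcn5 take larger shares in M2 than in M0.

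Genotype was compared first in M0. The study listed Clcn5 and Slc9a9 for M2, but it had compared these M0 libraries as well. It named only Gdf3 and Mmd as predicted targets significantly higher in both states. That Clcn5 and Slc9a9 were not called higher in M0 was therefore known beforehand and is no independent result. Between the genotypes in M0, 0 of the 6 members were called (edgeR), 0 had an unadjusted p under 0.05 and 0 were called by the DESeq2 Wald test. Over all 14089 genes edgeR called 0.461%, which is 65 genes, and DESeq2 219 genes. For Clcn5 the log2 difference, miR-210 KO over WT, was 0.094 (95% interval -0.16 to 0.35, adjusted p = 0.85, edgeR). For Slc9a9 it was -0.012 (95% interval -0.25 to 0.23, adjusted p = 0.98, edgeR). The differences of Clcn3, Clcn4, Clcn6 and Clcn7 lay between -0.087 and 0.016. Clcn7 was the 1 member whose genotypes did not overlap in M0, as in 14.4% of all genes tested, with 206 to 211 CPM in miR-210 KO and 215 to 230 CPM in WT (log2 difference -0.087, 95% interval -0.25 to 0.077).

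In M2, each miR-210 KO library lay above each WT library for Clcn5 (452 to 499 against 395 to 404 CPM) and for Slc9a9 (117 to 126 against 83.2 to 99.6 CPM). These differences were 0.262 and 0.38 on the log2 scale, so that Clcn5 lay just below and Slc9a9 above the limit of 1.2-fold. They are the values that chose the pair, and nothing is read from them here. Of the 4 other members, 0 were called in M2 (edgeR), 1 had an unadjusted p under 0.05 and 0 were called by the DESeq2 Wald test, beside 0.980% of 13980 genes called by edgeR, which is 137 genes, and 140 genes by DESeq2. Clcn3 was higher in every miR-210 KO library, 247 to 257 against 223 to 245 CPM, with a log2 difference of 0.094 that did not pass (95% interval -0.024 to 0.21, adjusted p = 0.61, edgeR). Clcn6 was lower in every miR-210 KO library, 20.0 to 24.9 against 25.1 to 27.6 CPM, with a log2 difference of -0.26 (95% interval -0.48 to -0.038, unadjusted p = 0.024, adjusted p = 0.35, edgeR). Clcn4 and Clcn7 overlapped between the genotypes, with log2 differences of -0.025 (95% interval -0.16 to 0.11) and -0.035 (-0.15 to 0.082). The genotypes did not overlap in 16.0% of all genes tested.

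Whether the change under IL-4 differed between genotypes was tested as an interaction over the 12 libraries, for the 4 genes that were not chosen on M2. It was -0.19 on the log2 scale for Clcn6 (95% interval -0.49 to 0.11, adjusted p = 0.73, edgeR), 0.073 for Clcn3 (-0.12 to 0.26), 0.047 for Clcn7 (-0.13 to 0.23) and -0.046 for Clcn4 (-0.27 to 0.17). Of these 4 members 0 were called, 0 had an unadjusted p under 0.05 and 0 were called by DESeq2. Over all 14825 genes edgeR called 0% and DESeq2 72 genes, with 1327 genes at an unadjusted p under 0.05 in edgeR.

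Clcn5 and Slc9a9 changed in opposite directions under IL-4 but varied together among the M0 libraries. Over the 12 libraries the Pearson correlation of their log2(CPM + 1) values was -0.81, and within the 6 M0 libraries it was 0.93. In WT M0 the library numbered 1 was the lowest and the library numbered 2 the highest for both genes, and the same held in miR-210 KO M0. In M0, Clcn4 also followed Clcn5 (0.88) and Slc9a9 (0.87). The points share their libraries and their scaling, and the values are a description. In M2 the correlation of Clcn5 and Slc9a9 over 6 libraries was 0.92, which holds the difference between genotypes on which both were chosen.

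**Figure D4:**
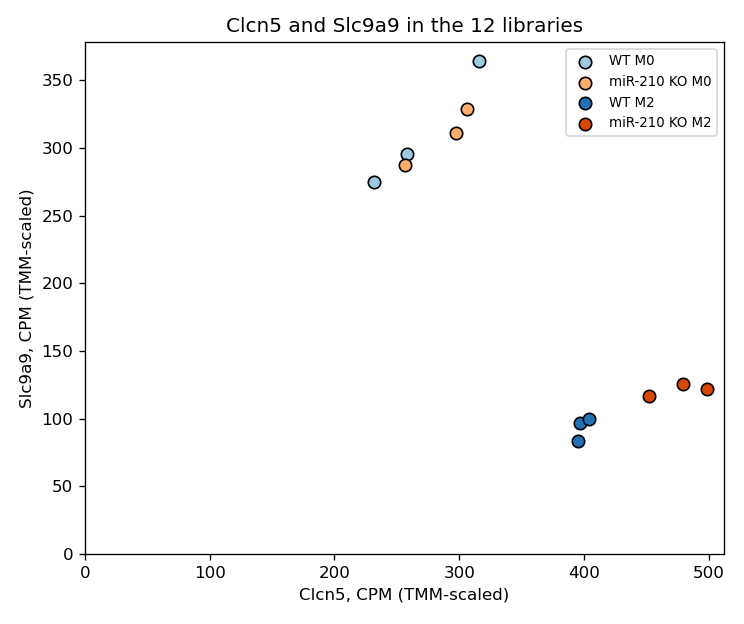
Level of Slc9a9 against that of Clcn5 in each of the 12 libraries, both in TMM-scaled CPM, coloured by group. The M0 libraries, at 275 to 364 CPM of Slc9a9, rise together along both axes, and the M2 libraries lie lower and to the right, with miR-210 KO M2 above WT M2 for both genes.

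The genes with the most similar pattern to each member were taken by Pearson correlation of log2(CPM + 1) over the 12 libraries, among 10930 other genes with a mean of at least 5 CPM. For Slc9a9 these were Maf, Rhobtb1 and Jade2, each at 0.99 to 1.00, and for Clcn3 they were Prrg1, Gda and Gprc5c, at 0.99 to 1.00. Clcn7 was most like Trim30b, Luzp1 and Tmcc3 (0.99 each). Clcn4 was most like Tmem132a, Homer1 and Marchf6 (0.98 each), and Clcn5 like Secisbp2l (0.99), Mrc1 (0.98) and Aplp2 (0.98). Clcn6 had the weakest likeness, to Zc3h7b (0.92), Taf4 (0.89) and Piezo1 (0.82). The 12 libraries span both states, so that for the 5 members that change under IL-4 this likeness holds the difference between states.

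Of the 3 partner genes, 1 rose and 1 fell in WT, and 1 fell in miR-210 KO. Ostm1 encodes the subunit that Clcn7 protein needs for its stability, and it rose in WT, where Clcn7 fell. Its level was 192 ± 7.88 CPM in WT M0 and 236 ± 1.66 CPM in WT M2 (SD, n = 3), a log2 change of 0.30 (standard error 0.060, adjusted p = 9.9e-04, edgeR). In miR-210 KO its log2 fold change of 0.24 lay under the limit on size (adjusted p = 0.044, edgeR). Tmem9, which encodes a partner of the endosomal CLC proteins, fell by 0.32 on the log2 scale in WT (adjusted p = 0.022, edgeR) and by 0.34 in miR-210 KO (adjusted p = 0.028, edgeR), and its libraries overlapped between the states in WT. Tmem9b had log2 fold changes of -0.10 and -0.14 and was not called. Between genotypes, 0 of these 3 genes were called in either state.

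Among the other organellar exchangers of the Slc9 family, Slc9a7 rose in both genotypes, the opposite direction to Slc9a9. Its product works in the Golgi network, and it had log2 fold changes of 0.35 (adjusted p = 0.022, edgeR) and 0.51 (adjusted p = 0.016) from 10.3 to 12.5 CPM in M0. Slc9a8 was not called, at 0.082 and -0.054. Slc9a5 had 9 to 39 counts a library and a log2 change of -0.61 in WT that did not pass (adjusted p = 0.097, edgeR) and of -1.34 in miR-210 KO (adjusted p = 0.0018), and the interaction did not call a difference between these. Slc9b2 had 4 to 20 counts and was not tested in the IL-4 comparisons. Slc9a4, an exchanger of the cell surface, rose by 1.85 in WT (adjusted p = 7.3e-05, edgeR) and 2.16 in miR-210 KO (adjusted p = 9.4e-04) from 3 to 12 counts a library in M0 to 21 to 49 in M2.

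The proton pump was read from its subunit genes. Of 25 V-ATPase genes 19 were tested, and 8 rose and 1 fell in WT, with a median log2 fold change of 0.23. In miR-210 KO 7 rose and 1 fell, with a median of 0.13. Atp6v0d2, the macrophage and osteoclast form of the d subunit, rose from 151 ± 21.4 CPM in WT M0 to 1253 ± 47.1 CPM in WT M2 (SD, n = 3), a log2 change of 3.06 (adjusted p = 3.1e-11, edgeR), and by 3.35 in miR-210 KO. Atp6v0a1, a form of the a subunit, rose by 2.24 in WT (adjusted p = 2.9e-10, edgeR) and 2.45 in miR-210 KO, and Atp6v1b2 of the catalytic sector by 0.69 and 0.90. The genes that fell were Atp6ap1, an accessory subunit, with -0.31 in WT, and Atp6v1g1 with -0.44 in miR-210 KO. Tcirg1, the a3 subunit of lysosomes and of the osteoclast border, was the 1 gene of the 19 called between genotypes, in M2. It stood at 544 ± 13.1 CPM in WT M2 and 445 ± 23.9 CPM in miR-210 KO M2 (SD, n = 3), a log2 difference of -0.28 (standard error 0.053, adjusted p = 0.016, edgeR), with no overlap. The call was lost when any 1 of the 3 WT M2 libraries (adjusted p = 0.060, 0.051 and 0.070 without libraries 1, 2 and 3, edgeR) or miR-210 KO M2 library 1 (adjusted p = 0.063) was left out, and without miR-210 KO M2 library 3 the difference of -0.24 lay under the limit on size. In M0 its difference was -0.16 (adjusted p = 0.61, edgeR).

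Of 16 other endolysosomal channel and transporter genes, 15 were tested under IL-4. In WT 7 rose and 3 fell, with a median log2 fold change of 0.094, and in miR-210 KO 7 rose and 2 fell, with a median of 0.060. Hvcn1, the voltage-gated proton channel, rose from 99.4 ± 1.38 to 322 ± 31.7 CPM in WT (SD, n = 3), a log2 change of 1.70 (adjusted p = 8.3e-10, edgeR), and by 1.28 in miR-210 KO. Lrrc8b, a volume-regulated anion channel subunit, rose by 1.57 and 1.56 and Tpcn2, a cation channel of lysosomes, by 1.35 and 1.20 on the log2 scale. Mcoln3, a calcium channel of endosomes, went from 20 to 38 counts a library in M0 to 2 to 8 in M2 and had fitted log2 fold changes of -2.83 in WT and -2.23 in miR-210 KO. Mcoln1, the main mucolipin of lysosomes, fell by 0.29 and 0.33 on the log2 scale, and Lrrc8d fell by 0.30 in WT. Between genotypes 0 of these genes were called.

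The MiT/TFE transcription factors are known to drive genes of lysosomes through the E-box CACGTG. Of the 4 factor genes, 3 rose and 1 was not called in each genotype. Tfeb rose from 43.9 ± 4.36 to 95.6 ± 0.889 CPM in WT (SD, n = 3), a log2 change of 1.13 (adjusted p = 6.2e-08, edgeR), and by 0.93 in miR-210 KO. Mitf rose by 0.99 and 1.04 and Tfec by 0.91 and 0.99, while Tfe3 had log2 fold changes of 0.045 and 0.020. The promoters of the members, 250 bases before to 50 after the start in RefSeq on GRCm38.p6, were searched for CACGTG, which reads the same on both strands and is held by 7.15% of 32851 promoters. It stood once in a promoter of Clcn4 and 2 times in those of Clcn6 and Clcn7, each time with T before it on one strand (TCACGTG, in 3.77% of promoters), and not in the promoters of Clcn3, Clcn5 or Slc9a9. The stretches around these E-boxes are shown because 3 of the 4 factor genes rose, with the E-box in capitals. They stand in a gene that rose (Clcn4), one that fell (Clcn7) and one that was not called (Clcn6).
Clcn4: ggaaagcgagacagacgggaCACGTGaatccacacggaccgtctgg
Clcn6: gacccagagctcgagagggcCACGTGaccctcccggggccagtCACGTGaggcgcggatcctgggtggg
Clcn7: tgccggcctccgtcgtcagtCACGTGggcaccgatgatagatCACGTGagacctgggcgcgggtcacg

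**Figure D5:**
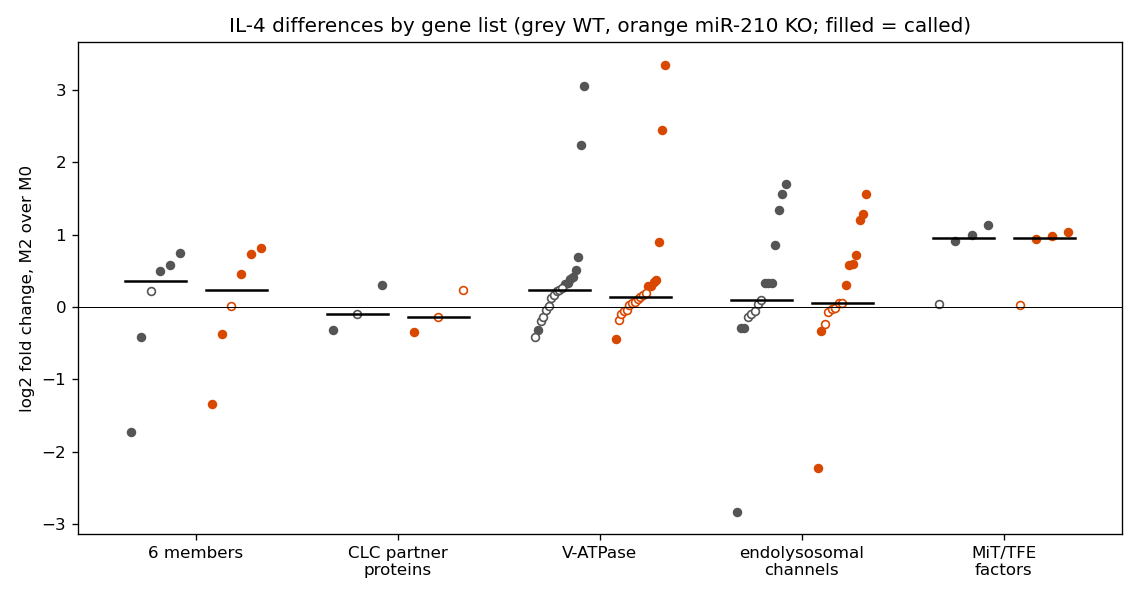
Log2 fold change, M2 over M0, of every tested gene in 5 lists, in WT (grey) and miR-210 KO (orange). Filled points are called, open points are not, and black lines are medians, 0.36 and 0.24 for the members and 0.23 and 0.13 for the V-ATPase. The 2 highest V-ATPase points in each genotype are Atp6v0d2 and Atp6v0a1.

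The IL-4 treatment itself was read from 4 marker genes, which were all called higher in both genotypes. Retnla had 0 counts in each M0 library and 2161 to 4493 in each M2 library, and Chil3 0 to 3 and 11673 to 17127. Arg1 rose 46.3-fold in WT and 26.2-fold in miR-210 KO, and Mrc1, the mannose receptor, 1.53-fold and 1.86-fold (edgeR fits). In M0, Arg1 stood at 73.6 ± 10.9 CPM in miR-210 KO and 41.1 ± 8.54 CPM in WT (SD, n = 3), the 1 marker called between genotypes (log2 difference 0.85, standard error 0.15, adjusted p = 0.034, edgeR). The call was lost without WT M0 library 3 (adjusted p = 0.20, edgeR), miR-210 KO M0 library 1 (adjusted p = 0.094) or miR-210 KO M0 library 3 (adjusted p = 0.13), with log2 differences of 0.73 to 1.02 over the fits that left out 1 library. Its interaction with IL-4 did not pass (adjusted p = 0.095, edgeR).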

How the data were processed

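Ribosome-depleted RNA of 12 libraries in 4 groups of 3 was used. The authors trimmed reads (Trimmomatic), removed duplicates (Picard), aligned to GRCm39 (STAR) and deposited strand-specific raw counts per gene (featureCounts) in 4 tables, 1 for each pair of groups. The authors also deposited a normalized signal, these counts scaled per library within a pair, which served only as an alternative. Columns were assigned by group name, and their numbers 1 to 3 are not tied to samples. GENCODE vM39 matched 56323 of 56941 identifiers.

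Genes were tested with edgeR 4.0.16 in R 4.3.3 (quasi-likelihood, TMM, filterByExpr) with 6 libraries per pair of groups and all 12 for the interaction. A standard error is the log2 fold change divided by the square root of F. Alternatives were DESeq2 1.42.0, other size factors and filters, other fold limits, a fit of 12 libraries, a block on the column numbers, and each library left out. Scripts were tested on simulated data. Replicate pairs differed by more than counting noise, and 0 libraries were merged. Members, lists and the rule for named genes (all members, partners and organellar exchangers, the 3 largest changes each way per other list, list genes called between genotypes, and the 3 most similar genes) were chosen with earlier results of these data known. Some genes of these lists are not reported here.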

Additional observations from a re-analysis of the deposited data

How the results depend on the processing

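When changes over 2-fold were required, 1 member was called under IL-4 in each genotype, and the share of all genes at this limit was not counted. Under all other settings, DESeq2, RLE size factors, both filters, no fold limit, the fit of 12 libraries and each library left out, the number of members called under IL-4 was 5, and the number between genotypes and in the interaction was 0 (in M2 and the interaction, of the 4 members not chosen on M2). Of the log2 fold changes of single members, 0 reversed except in fits that left out 1 library, where 12 of 192 did, all of genes not called. Over these fits the M0 difference between genotypes ranged from -0.018 to 0.043 for Clcn3, from -0.018 to 0.084 for Clcn4, from -0.00097 to 0.24 for Clcn5 and from -0.093 to 0.13 for Slc9a9. The M2 difference of Clcn4 ranged from -0.054 to 0.025, and the IL-4 change of Clcn6 in miR-210 KO from -0.10 to 0.068. Beside 0.262, the M2 difference of Clcn5 was 0.264 from the deposited normalized counts and 0.228 to 0.300 with 1 library left out, and that of Slc9a9 0.312 to 0.431. Clcn5 and Slc9a9 were chosen on this difference in these same libraries, so these ranges are a description and nothing is read from them. Leaving out 1 library, an alternative chosen for Arg1 and Tcirg1 after seeing the data, ended their calls between genotypes in 3 and 5 of 6 fits. The columns are numbered 1 to 3 in each group, but libraries with the same number did not in general deviate together. Correlations of deviations from group means were -0.27 to 0.34, above 0.1 in 2 of 12 pairs. Both of these pairs stood in the comparison of genotypes in M0, with 0.11 for number 1 and 0.34 for number 2, beside 0.022 for number 3. The highest correlation with another number there was 0.22 for number 1 and -0.052 for number 2. A replicate block on the column numbers, chosen after seeing the data, left 5, 5, 0, 0 and 0 members called. It moved the genes called between genotypes from 65 to 284 in M0 and from 137 to 289 in M2. With 3 libraries a group, a difference that was not called is not shown to be absent. The values within its printed interval remain compatible with the data.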

Other observations

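The introns of Clcn5 host 5 microRNA genes on the same strand, Mir500, Mir501, Mir362, Mir188 and Mir532. These genes had 1 to 28 counts a library. Reads of their precursors and of unspliced Clcn5 RNA cannot be told apart in these counts. Mir501 had 6 to 15 counts in WT M0 and 17 to 28 in WT M2, and 8 to 11 in miR-210 KO M0 and 15 to 20 in miR-210 KO M2. Mir532 had 1 to 7 counts in WT M0 and 9 to 15 in WT M2, but 3 to 9 in miR-210 KO M0 and 4 to 5 in miR-210 KO M2. Mir188 overlapped between the states in WT (3 to 7 and 3 to 10 counts) and had 3 to 4 counts in miR-210 KO M0 and 5 to 8 in miR-210 KO M2. The ranges of Mir500 and Mir362 met or overlapped between the states in both genotypes. Libraries of longer RNA hold little mature microRNA, so these counts do not measure it. In the mature sequences from RefSeq, some arms share a seed (bases 2 to 8, in capitals), miR-500-3p with miR-501-3p and miR-500-5p with miR-362-5p. The other arms read here each had a seed of their own and are not shown.
miR-500-3p: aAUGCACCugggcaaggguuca
miR-501-3p: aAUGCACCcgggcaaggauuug
miR-500-5p: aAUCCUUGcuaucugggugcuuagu
miR-362-5p: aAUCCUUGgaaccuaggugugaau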
